A study of Mus musculus with 2 samples.

Results

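The proteasome genes were examined in early erythroid progenitors that were recovering from 5-FU, as the genes whose symbol names a subunit, an activator, an inhibitor or an assembly factor of the proteasome (Psma, Psmb, Psmc, Psmd, Psme, Psmf and Psmg followed by a number). RefSeq holds 57 mouse symbols of that form, and 50 of them had a probe on the array, among 20660 named genes in all. The 7 others, 6 pseudogenes and Psme2b, had none. The rule reads symbols and no measured value, although it was set with earlier results of these data known.

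The cells were pre CFU-E, the progenitors that come before the colony-forming erythroid stage. They were sorted by their surface markers, as c-Kit+ endoglin+ CD150+ cells that were Lin- and Sca1- with FCgRII/III-/Lo and CD41Lo staining, from the BM of C57BL/6 mice of 8 to 12 weeks of age, either WT or ESAM-KO. ESAM-KO mice lack the endothelial cell-selective adhesion molecule, in every cell rather than in the blood lineage alone. All mice of both genotypes had received a single injection of 120 mg/kg of 5-FU, a drug that kills cycling cells, 8 days before the sort. Cells of 3 mice were pooled for each genotype and their RNA was amplified and hybridised with Cy3 to 1 Agilent array, so there were 2 arrays in all and no replicate. The genotypes therefore cannot be told apart from the 2 pools, sorts or amplifications, and no ratio below comes with an SD between animals or a p-value. In pooled RNA, fewer cells of a type and less RNA per cell cannot be told apart either.

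Proteasomes degrade proteins that carry ubiquitin chains. The 20S core is a barrel of stacked alpha and beta rings: the alpha rings gate the entrance, and the beta rings hold the catalytic sites, which belong to Psmb5, Psmb6 and Psmb7. The 19S particle sits on the barrel and recognises, unfolds and feeds in the substrate. Under interferon, and constitutively in many blood cells, Psmb8, Psmb9 and Psmb10 take the places of Psmb5, Psmb6 and Psmb7 to form the immunoproteasome, which cuts peptides for MHC class I molecules, and the PA28 cap (Psme1 with Psme2) can replace the 19S particle. Erythroid cells rely on the ubiquitin-proteasome system to clear their organelles and surplus proteins as they mature.

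The promoters of the 3 immunoproteasome subunits and of Psme1 are shown because their ratios of ESAM-KO over WT differed from gene to gene. A further reason is that Psmb9 shares its promoter with Tap1. Each sequence is the RefSeq window of 300 bases in assembly GRCm38.p6, from 250 bases before the transcription start to 50 after it, written 5′ to 3′ on the strand of the gene. Psmb9 lies at chr17:34187281-34187580 on the minus strand, and its capitals mark the 225 bases between its start and that of Tap1, which is read the other way. Psmb8 lies at chr17:34197945-34198244 on the plus strand, and its capitals mark a match to the gamma-activated site TTCNNNGAA. Psmb10 lies at chr8:105938343-105938642 on the minus strand and held none of the 3 motifs searched. Psme1 lies at chr14:55578244-55578543 on the plus strand, and its capitals mark a match, on the other strand, to the interferon response element core GAAANNGAA.
Psmb9: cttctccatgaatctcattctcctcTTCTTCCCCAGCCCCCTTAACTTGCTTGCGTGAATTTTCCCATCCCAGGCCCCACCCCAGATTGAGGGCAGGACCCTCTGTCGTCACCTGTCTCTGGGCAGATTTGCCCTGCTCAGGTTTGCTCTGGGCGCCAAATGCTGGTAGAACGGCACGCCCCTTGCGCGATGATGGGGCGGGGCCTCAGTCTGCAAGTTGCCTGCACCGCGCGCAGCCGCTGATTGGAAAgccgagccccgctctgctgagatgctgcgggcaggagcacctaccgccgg
Psmb8: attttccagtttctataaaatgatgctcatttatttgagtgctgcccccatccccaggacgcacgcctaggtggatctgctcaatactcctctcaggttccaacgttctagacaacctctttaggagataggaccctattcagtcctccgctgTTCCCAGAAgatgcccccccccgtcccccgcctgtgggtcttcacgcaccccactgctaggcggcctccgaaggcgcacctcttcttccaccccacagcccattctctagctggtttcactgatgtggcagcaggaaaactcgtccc
Psmb10: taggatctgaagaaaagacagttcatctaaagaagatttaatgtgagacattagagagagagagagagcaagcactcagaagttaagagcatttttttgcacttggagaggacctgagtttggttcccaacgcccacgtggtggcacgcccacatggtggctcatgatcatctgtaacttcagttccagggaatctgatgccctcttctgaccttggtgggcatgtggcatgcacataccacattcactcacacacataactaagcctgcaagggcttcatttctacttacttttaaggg
Psme1: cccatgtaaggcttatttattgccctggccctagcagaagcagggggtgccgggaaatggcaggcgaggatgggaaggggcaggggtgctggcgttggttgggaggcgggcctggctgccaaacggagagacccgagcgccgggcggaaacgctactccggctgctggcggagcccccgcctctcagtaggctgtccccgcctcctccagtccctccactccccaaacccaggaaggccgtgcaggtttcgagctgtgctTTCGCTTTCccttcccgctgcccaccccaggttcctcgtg

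The measure was the processed intensity of each probe, from which the scanner software had already removed background. Intensities are given as deposited, first for WT and then for ESAM-KO. The ESAM-KO array was brighter throughout: the 75th percentile of its intensities was 251.1, against 201.4 on the WT array. Ratios are the log2 of ESAM-KO over WT after each array was set to that percentile, which takes 0.32 off every unscaled log2 ratio, so that a gene can have a higher intensity on the ESAM-KO array and a ratio below 0. After this scaling the median log2 ratio of all named genes was 0.00056. A gene was represented by its brighter probe. The error given with a ratio is that of the scanner software, about 0.20 on the log2 scale for a probe with a single spot. It covers the reading of the spot and not the pool, the sort or the amplification.

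The arrays stood apart in neutrophil genes. All 10 neutrophil markers were past 2-fold lower on the ESAM-KO array, with a median log2 ratio of -3.36, and their summed intensity was 59861 on WT and 10032 on ESAM-KO. B cell markers had a median of -1.45, with 5 of 8 past 2-fold lower and a summed intensity of 611 on WT and 242 on ESAM-KO, while Ms4a1, a defining B cell marker, was above background on neither array. All 10 erythroid progenitor markers were above background on both arrays, with a median of -0.33 and none past 2-fold. The macrophage markers had a median of 0.21 and sums of 7216 and 8765, the T and NK cell markers a median of 0.074, and the dendritic cell markers a median of -0.12. The lineage antibodies of the sort, which included Gr1, Mac1 and CD45R/B220, should remove mature neutrophils and B cells, and the methods state that purity was checked. The part of these cells in the ratios of the proteasome genes was not tested. Esam itself, the deleted gene, read 27.4 on WT and 20.6 on ESAM-KO, a log2 ratio of -0.73 with an error of 0.31; whether its probe lies in the deleted part of the gene is not given in the sources used here.

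Proteasome genes were bright in these cells and differed little between the genotypes, and those that differed leaned to the higher side in ESAM-KO. Of the 50 genes, 48 had a probe well above background on each array, from an intensity of 128.9 upwards to 54778. Psma8 was above background on the ESAM-KO array alone and its ratio is a bound. Psmb11, the beta subunit of the thymus, read 3.66 and 2.89 and was above background on neither, so 49 genes had a ratio. Their median log2 ratio was 0.15, and 33 of the 49 (67.3%) were above 0, against 50.1% of the 14136 named genes with a ratio.

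A 2-fold difference, the criterion of the study, was rare among them. Psma8 was past 2-fold higher and none was past 2-fold lower. Over all named genes 15.4% were past 2-fold, 6.99% higher and 8.43% lower. That split of 988 higher and 1191 lower genes depends on the scaling: it was 1804 and 729 without scaling, 751 and 1513 with scaling to the median, and 236 and 486 with another background correction (normexp) and quantile normalization. At 1.5-fold, 7 proteasome genes were higher (14.3%) and 1 was lower (2.04%), where 15.6% of all named genes were higher and 17.6% lower. The share on the higher side was thus near the background, and the share on the lower side was below it.

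Bright probes vary less, so the genes were also read against others of like brightness. Of the 48 genes above background on both arrays, 38 fell in the brightest quartile of all such genes, 7 in the next quartile and 3 in the one below. Those 38 had a median log2 ratio of 0.18, with 28 above 0 (73.7%), where the whole quartile had a median of 0.018 and 51.9% above 0. The 7 genes of the next quartile went the other way, with a median of -0.13 and 2 above 0 (28.6%), where that quartile had 47.6% above 0. None of the 38 was past 2-fold, against 2.63% of that quartile. At 1.5-fold, 4 were higher and none lower, against 6.66% higher and 7.13% lower. Of the 48 genes, 13 were higher and 6 lower by more than 2 scanner errors. Without scaling 42 of the 48 had the higher intensity on the ESAM-KO array, where the median log2 ratio of all named genes was 0.31. The shares of all named genes that meet these 2 criteria were not counted, so neither count can be read as particular to the proteasome. No test could be made of any of these counts.

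**Figure D1:**
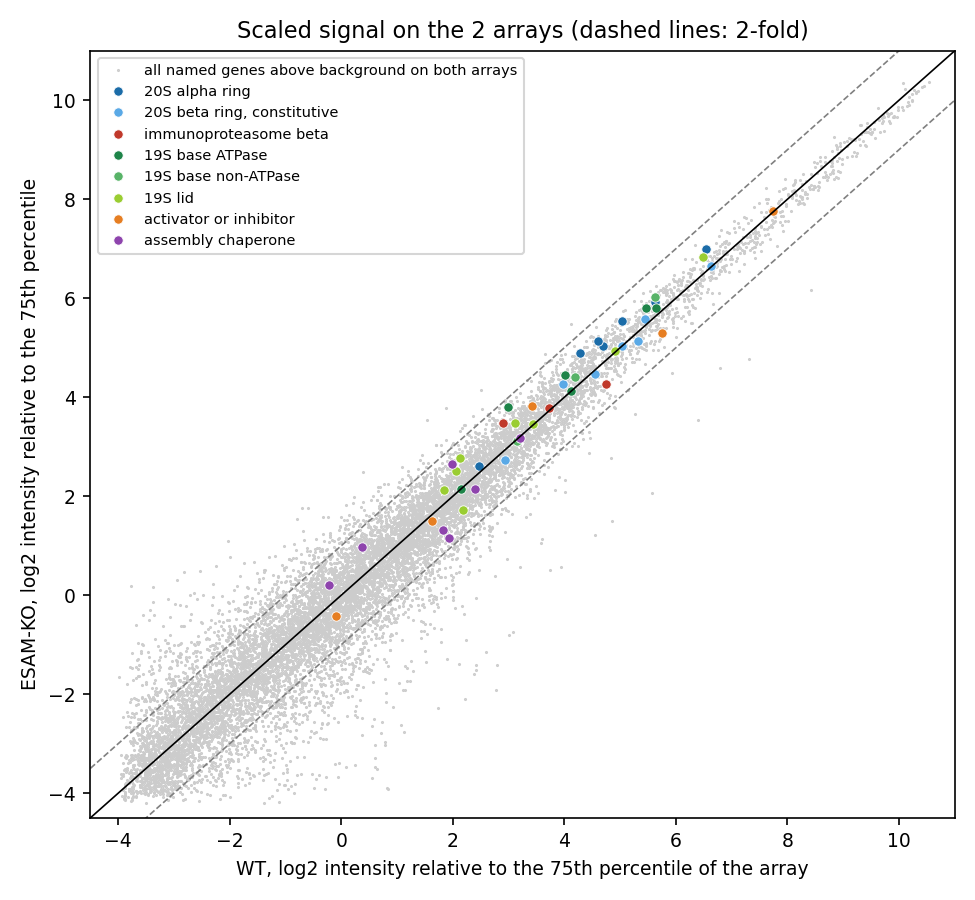
Scaled log2 intensity on the WT array (x axis) and on the ESAM-KO array (y axis), relative to the 75th percentile of each array, for all 12615 named genes above background on both arrays (grey points) and for the proteasome subunits, regulators and assembly factors among them (coloured by class). Nearly all proteasome genes lie in the bright upper part, and none lies past the dashed 2-fold lines.

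The alpha ring of the 20S core was the class most clearly on the higher side in ESAM-KO. All 7 subunits had a ratio above 0, from 0.14 to 0.60, with a median of 0.46. Psma1 had the highest ratio of the ring: its probe read 3927 on WT and 7408 on ESAM-KO, a log2 ratio of 0.60 with an error of 0.20. Psma5 read 4869 and 8824, a log2 ratio of 0.54. Psma3 read 6608 and 11597, a log2 ratio of 0.49, and Psma7 read 18649 and 32084, a log2 ratio of 0.46. These 4 subunits had ratios more than 2 errors above 0. Psma2 read 5175 and 8184 (0.34) and Psma6 read 9907 and 15314 (0.31). The lowest ratio was that of Psma4, whose brighter probe read 1121 and 1539 with a log2 ratio of 0.14, within 1 error of 0, and whose dimmer probe read 788 and 1355 with a log2 ratio of 0.46. The sign of each of the 7 ratios was the same in all 12 other ways of processing that were tried. Those that change only the filter for dim probes cannot alter the ratio of a gene above background on both arrays.

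The constitutive beta ring stood at the level of all genes. Its 7 subunits had a median log2 ratio of -0.0099, with 3 above 0 and 4 below, over a range of -0.22 to 0.29. The medians of the alpha and the beta ring thus lay 0.47 apart on the log2 scale, a difference that does not depend on how the arrays are scaled to each other. The lowest ratio was that of Psmb1, a structural subunit, which read 1549 and 1656 (-0.22), followed by Psmb2, at 8074 and 8775 (-0.20). Both intensities were a little higher on the ESAM-KO array, and both ratios turned above 0 without scaling. Of the catalytic subunits, Psmb5, which carries the chymotrypsin-like site, read 3181 and 4848 with a log2 ratio of 0.29, the highest of the ring, and its dimmer probe read 2186 and 2904 (0.091). Psmb6, the caspase-like subunit, read 4737 and 5554 with a log2 ratio of -0.089, and turned above 0 without scaling. Psmb7, the trypsin-like subunit, read 8750 and 12016 with a log2 ratio of 0.14. Psmb5 was the only beta subunit of this ring with a ratio more than 1 error above 0, and the dimmer of its probes was not.

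**Figure D2:**
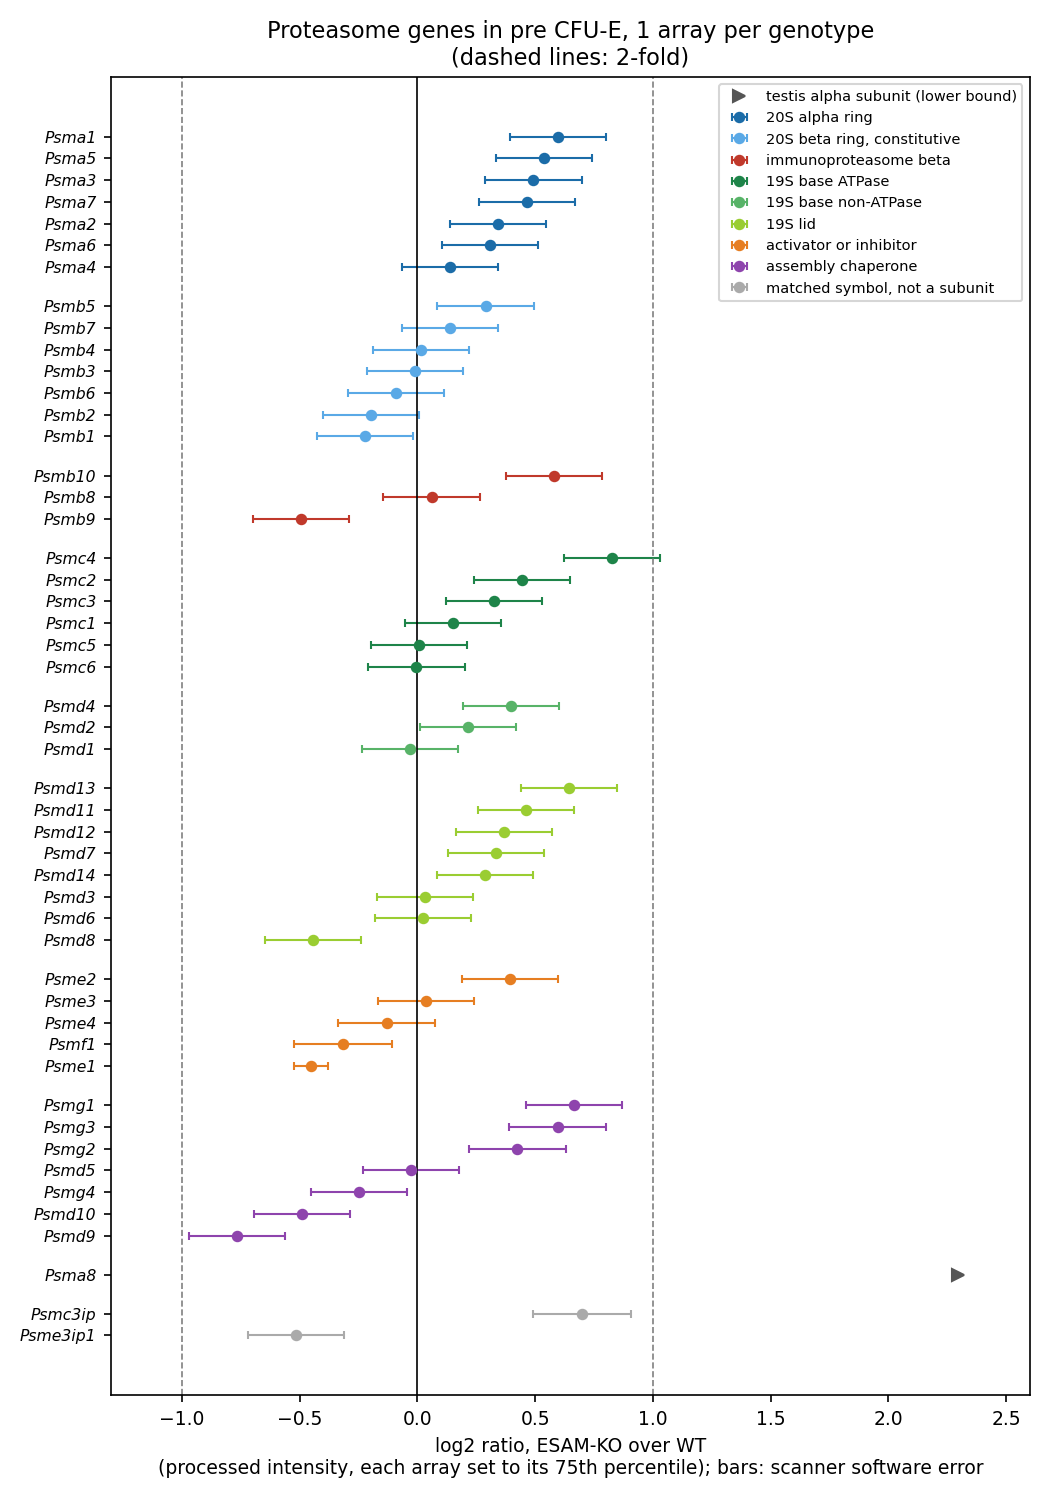
Log2 ratio of ESAM-KO over WT of each proteasome gene (x axis), grouped and coloured by its place in the complex, from 1 array per genotype; bars are the scanner software error, the arrowhead for Psma8 is a lower bound and dashed lines mark 2-fold. The 7 alpha ring genes all lie above 0, from 0.14 to 0.60, the constitutive beta ring lies around 0, and Psmb8, Psmb9 and Psmb10 spread from -0.49 to 0.58.

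The immunoproteasome subunits did not share a direction. Psmb9 had a lower ratio in ESAM-KO, Psmb10 a higher ratio, and Psmb8 a ratio near 0. Psmb8, which replaces Psmb5, read 2663 on WT and 3462 on ESAM-KO, a log2 ratio of 0.060 with an error of 0.20, and it turned to -0.069 when the arrays were set to their medians. Psmb9, which replaces Psmb6, read 5437 and 4811, a log2 ratio of -0.49 with an error of 0.20. Psmb10, which replaces Psmb7, read 1498 and 2793, a log2 ratio of 0.58 with an error of 0.20. Psmb9 was 1 of 6 genes with a ratio that had a lower intensity on the ESAM-KO array even before scaling, and Psmb10 had the highest ratio of all catalytic subunits. Psmb9 stayed below 0 and Psmb10 above 0 under each of the 12 alternatives. The settings for dim probes, the floor, outlier spots and the mean of probes left these ratios unchanged. Only the other scalings, the normalizations and the series table could have turned them.

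Set against the constitutive alpha and beta subunits together, the immunoproteasome subunits were not higher as a group. Their median of 0.060 lay 0.15 below the median of those 14 subunits, which was 0.21. It lay above the median of the constitutive beta ring alone, which was -0.0099, so the direction depends on whether the alpha ring is counted. Pair by pair, the log2 ratio of Psmb8 minus that of Psmb5 was -0.23, with an error of 0.29. The difference of Psmb9 and Psmb6 was -0.41, and that of Psmb10 and Psmb7 was 0.44, each with an error of 0.29. Within the trio the highest and the lowest ratio lay 1.08 apart, with an error of 0.29. The pairwise differences were between 1 and 2 scanner errors for Psmb9 and Psmb10 and under 1 error for Psmb8, and the gap between Psmb10 and Psmb9 was more than 3 errors. With 1 array per genotype none of these differences could be set against the spread between animals.

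The base and lid subunits of the 19S regulatory particle that have a Psm symbol leaned to the higher side in ESAM-KO. Of these 17, 14 were above 0, with a median log2 ratio of 0.29. Sem1 of the lid (-0.58) and Adrm1 of the base (-0.16) have other symbols, were below 0 and are not in these counts. Psmc4, an ATPase of the base, which uses ATP to unfold the substrate, had the highest ratio of all subunits above background on both arrays: it read 1590 and 3519, a log2 ratio of 0.83. The 6 ATPases had a median of 0.24, with Psmc6 the lowest, at 893 and 1110 and a log2 ratio of -0.0039. Psmc2 was measured by 2 probes with log2 ratios of 0.44 and 0.49, and Psmc3 by 2 probes with 0.33 and 0.014. Among the other base subunits, Psmd4, a ubiquitin receptor, read 9900 and 16257 (0.40), Psmd2 had a ratio of 0.21, and Psmd1, the scaffold next to it, read 1780 and 2170 (-0.032).

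In the lid, which removes the ubiquitin chain, 7 of 8 subunits with a Psm symbol had ratios above 0 and the median was 0.31. Psmd13 was the highest, at 881 and 1714 with a log2 ratio of 0.64. Psmd11 had a ratio of 0.46, and the 2 probes of Psmd12 gave 0.37 and 0.42. Psmd14, the deubiquitinating enzyme of the lid, read 723 and 1099 with a log2 ratio of 0.29. Psmd8 stood apart from its neighbours in the lid: it read 908 and 833, a log2 ratio of -0.44 that lay more than 2 errors below 0. It was the only base or lid subunit with a Psm symbol whose intensity was lower on the ESAM-KO array before scaling. Over the constitutive core, base and lid together, 24 of 31 subunits with a Psm symbol were above 0, with a median of 0.29.

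The caps and the inhibitor gave a mixed picture, with 2 of 5 above 0 and a median log2 ratio of -0.13. Psme1 encodes the PA28 alpha subunit, which forms a ring with the beta subunit encoded by Psme2, and it is the proteasome gene with the best technical replication because its probe was spotted 10 times. The 8 spots that were not marked as outliers read 10330 to 11153 on WT, with a median of 10842, and 9437 to 10341 on ESAM-KO, with a median of 9861. The ranges overlapped by a single ESAM-KO spot. The log2 ratio after scaling was -0.45 with an error of 0.072, from -0.56 to -0.40 over the 8 spots, all below 0, with an SD over spots of 0.050. Over the 213 probes with at least 8 such spots the median SD was 0.113. Spots on a single slide share the same RNA, so this spread covers the array alone and says nothing of the mice.

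Psme2 was not settled by its 2 probes. The probe used here read 2153 and 3530, a log2 ratio of 0.39, and the other read 2468 and 2697, a log2 ratio of -0.19, below 0 by less than 1 error. With normexp the value for Psme2 was -0.22. The symbol Psme2b, a near copy of Psme2 that has no probe of its own, belongs to this family, and whether the Psme2 probes also read it was not tested. Psme1 minus Psme2 was -0.85 with an error of 0.22 for the probe used. Psme3, the nuclear PA28 gamma, was the brightest proteasome gene, at 42840 and 54778, with a log2 ratio of 0.036. Psme4, which encodes PA200, had ratios of -0.13 and -0.37 from its 2 probes. Psmf1, which encodes the inhibitor PI31, read 188.4 and 188.7 with a log2 ratio of -0.32.

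The assembly chaperones, which build the ring and the base and then leave, were split as widely as any class, from -0.77 to 0.66 with a median of -0.028. Psmg1 forms a dimer with Psmg2 that helps to assemble the alpha ring. Its brighter probe read 801 and 1582 and gave a log2 ratio of 0.66, and its other probe gave 0.68. Psmg2 had a ratio of 0.42. Psmg3, which pairs with Psmg4 in the same task, read 260.1 and 490.1 with a log2 ratio of 0.60, while Psmg4 read 1057 and 1110 with a log2 ratio of -0.25. Of the chaperones of the 19S base, Psmd9 had the lowest ratio of all proteasome genes: its brighter probe read 766 and 561, a log2 ratio of -0.77, and its other probe read 336.3 and 289.0, a log2 ratio of -0.54. Psmd10, the oncoprotein gankyrin, read 708 and 629 with the brighter probe, a log2 ratio of -0.49, and 146.5 and 189.6 with the dimmer, a log2 ratio of 0.054. Psmd5 read 1866 and 2282 with a log2 ratio of -0.028.

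3 further genes are set apart by their role. Psma8, a testis-specific alpha subunit, read 11.5 on WT, where it was not well above background, and 76.9 on ESAM-KO, which gives a log2 ratio of at least 2.29. It was the only proteasome gene past 2-fold, it has a single probe and spot, and with normexp its ratio was 0.93, under 2-fold. Psmc3ip and Psme3ip1 share the form of the symbol but are not subunits: they encode proteins that bind a subunit or its homologue. Psmc3ip read 128.9 and 261.3 with a log2 ratio of 0.70, and Psme3ip1 read 2218 and 1935 with a log2 ratio of -0.51.

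Probes that read the same gene gave like values more often here than elsewhere on the array. Of the 11 proteasome genes with 2 probes, 9 (81.8%) had both on the same side of 0, and the median gap between their log2 ratios was 0.23. Over the 3056 named genes with more than 1 probe, 58.1% had all on the same side and the median gap was 0.47. The exceptions were Psmd10 and Psme2, the latter with the largest gap, 0.59. The proteasome probes are brighter than most, and this comparison was not matched for brightness.

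**Figure D3:**
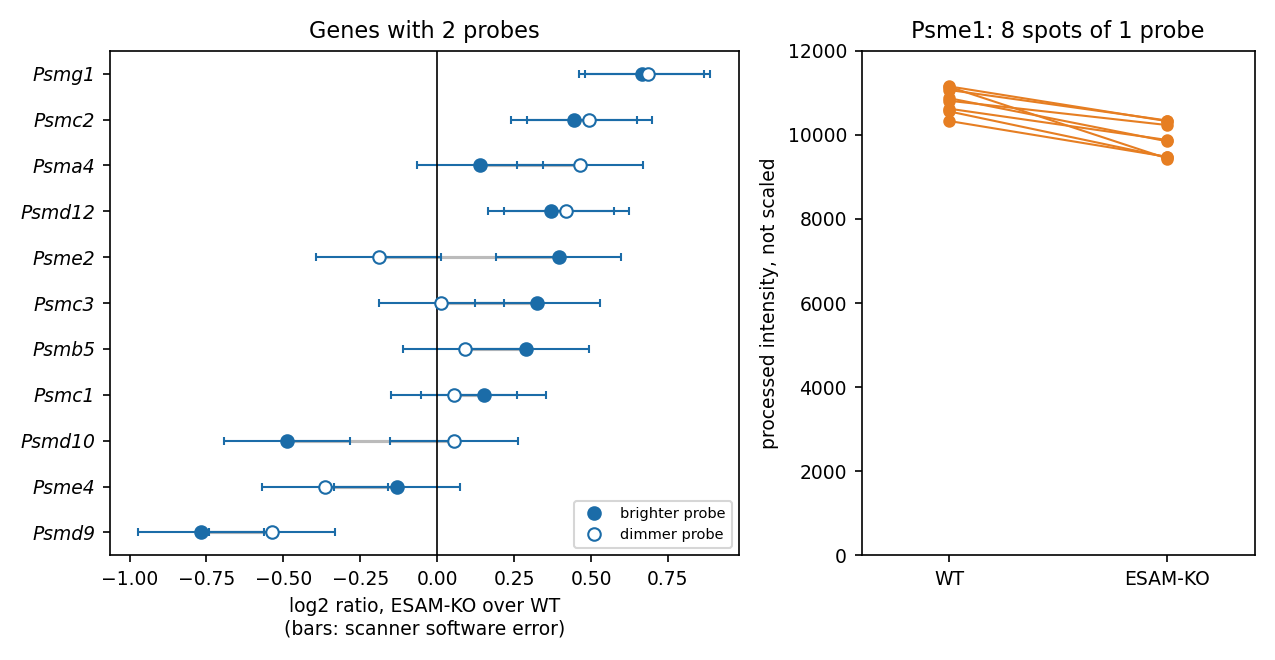
Left, log2 ratio of ESAM-KO over WT (x axis) from both probes of each of the 11 proteasome genes that have 2, with the scanner software error as bars; 9 genes have both probes on the same side of 0, and Psmd10 and Psme2 do not. Right, unscaled processed intensity (y axis, from 0) of the 8 spots of the Psme1 probe on the WT and the ESAM-KO array, joined spot by spot; each line goes down, from 10330 to 11153 on WT to 9437 to 10341 on ESAM-KO.

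Psmb8 and Psmb9 lie in the MHC locus of chromosome 17 beside the genes of the transporter that carries proteasome products into the endoplasmic reticulum, in the order Psmb9, Tap1, Psmb8, Tap2 with no gene between them. Along this row Psmb9 was at -0.49, Tap1 at -1.29 and Tap2 at -0.87, while the ratio of Psmb8, 0.060, was smaller than its error of 0.20. Tap1, which shares 275 of 300 bases of its promoter window with Psmb9, read 93.6 and 47.6 and was the only gene of MHC class I presentation past 2-fold. Tap2 read 892 and 610. Psmb9 and its promoter partner Tap1 were both lower on the ESAM-KO array before and after scaling, with an error of 0.081 for Tap1. Psme1 and Psme2 are close neighbours on chromosome 14, with 1 gene between them. Psme1 had a ratio of -0.45, and the 2 probes of Psme2 gave 0.39 and -0.19.

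The 12 genes of MHC class I presentation, which take over the peptides that proteasomes make, lay below 0 on balance after scaling. Their median log2 ratio was -0.27, with 4 above 0 and 8 below, against 50.1% of all named genes above 0. Without scaling they were split evenly, with 6 above and 6 below and a median of 0.050. Tapbp, the tapasin that docks MHC class I molecules to the transporter, read 2072 and 1495 (-0.79). The class I heavy chains had ratios of -0.49 for H2-D1 and -0.15 for H2-K1, and B2m, their shared light chain, had a ratio of -0.33. The genes above 0 were Calr (0.46), Erap1 (0.22), Pdia3 (0.20) and Canx (0.19). Of these, Calr, Pdia3 and Canx encode general chaperones of the endoplasmic reticulum. Erap1 was dim, reading 32.6 and 47.4, and its ratio was smaller than its error of 0.26. The ratio of Canx lay within 1 error of 0.

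The interferon receptors and the factors known to drive the immunoproteasome genes were lower on balance in ESAM-KO after scaling. Of 12 genes, Irf8 was above background on neither array, and the 11 others had a median log2 ratio of -0.36 with 2 above 0, or of -0.042 with 5 above 0 when the arrays were not scaled. Irf1, the main activator of the immunoproteasome genes, read 6032 and 3444 with a log2 ratio of -1.13, past 2-fold, but its dimmer probe went the other way, reading 52.3 and 333.8, a log2 ratio of 2.35. Both chains of the type I interferon receptor had ratios below 0, at -0.92 for Ifnar2 and -0.65 for Ifnar1. Irf9 had a ratio of -0.89. Stat2 was the exception: it read 155.9 and 394.9, a log2 ratio of 1.02. The neutrophil and B cell markers were lower on the ESAM-KO array too, as given above, and the part of such cells in the ratios of Psmb9, Psme1 and the presentation genes was not tested.

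**Figure D4:**
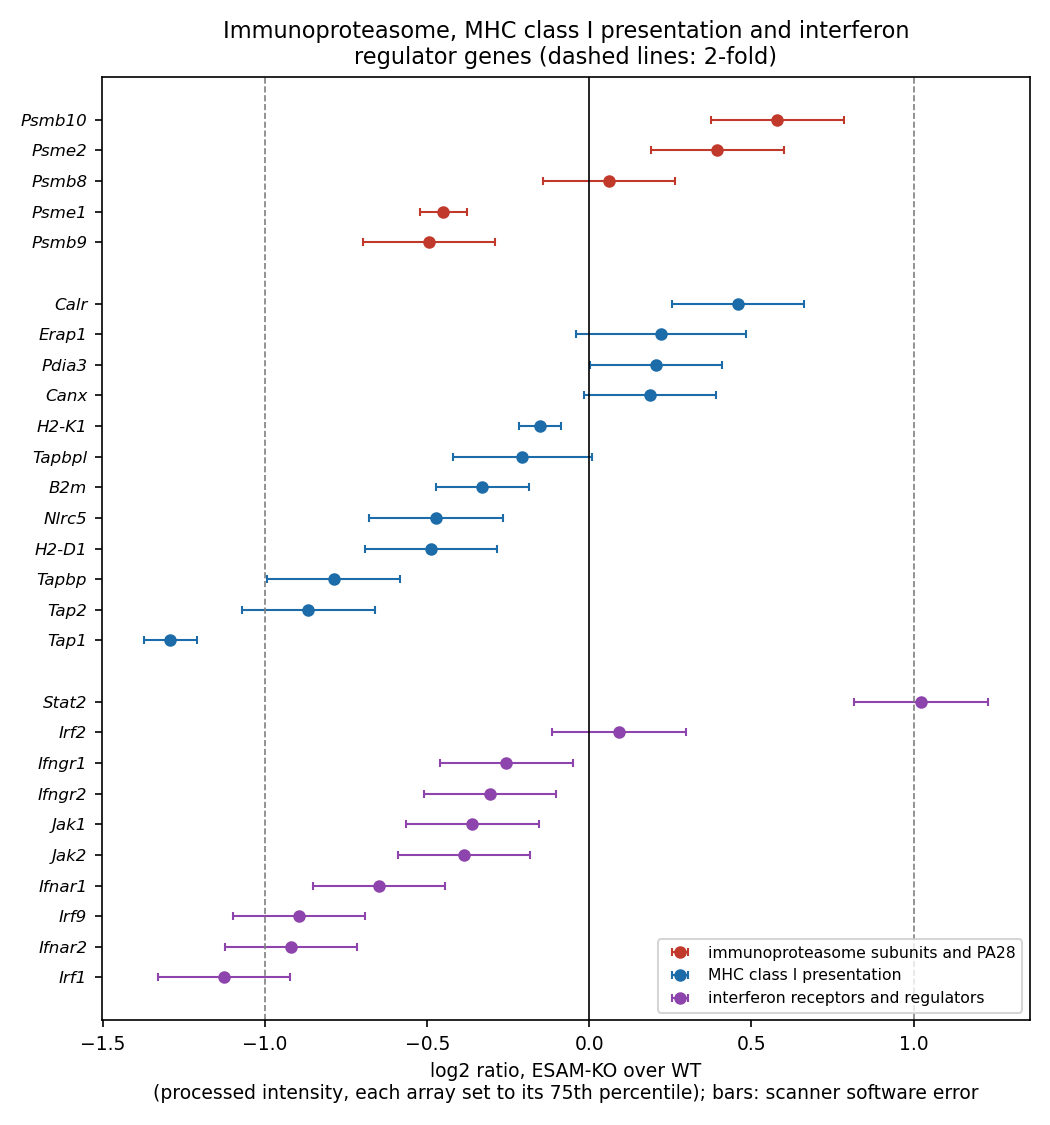
Log2 ratio of ESAM-KO over WT (x axis) of the immunoproteasome and PA28 subunits (red), of 12 genes of MHC class I presentation (blue) and of 10 of the 11 interferon receptor and regulator genes with a ratio (purple), each from its brighter probe, with the scanner software error as bars and dashed lines at 2-fold. Psmb10 and Psme2 lie above 0 while Psmb9 and Psme1 lie below it, Tap1 and Irf1 are past 2-fold lower and Stat2 is past 2-fold higher. The dimmer probes of Psme2 (-0.19) and Irf1 (2.35), which are not plotted, went the other way.

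The remaining genes of the ubiquitin-proteasome pathway showed wider differences than the subunits. Of 37 genes on the list, 34 had a probe and 33 a ratio, with a median of -0.088 and 13 above 0. Past 2-fold, 2 of the 33 were higher and 1 was lower, where 6.99% of all named genes were higher and 8.43% lower. The comparison with the subunits was not matched for brightness. Without scaling the median was 0.23, with 24 above 0. Ubqln4, which encodes a shuttle factor that brings ubiquitinated proteins to the proteasome, read 216.4 and 715.4, past 2-fold higher with a log2 ratio of 1.41. The related shuttles Ubqln1 and Rad23b had ratios of 0.78 and 0.57, and Ubqln2 one of -0.48. Uchl5 and Usp14, the deubiquitinating enzymes that ride on the 19S particle, had ratios of 0.77 and 0.45. Trim10, a RING-finger protein needed for erythroid maturation, was past 2-fold lower, reading 146.3 and 36.8, a log2 ratio of -2.31, and Trim58, an erythroid ubiquitin ligase, read 90.8 and 59.0 (-0.94).

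Factors that bind to the particle itself differed among themselves. Sem1, the small lid subunit whose symbol lies outside the Psm series, read 6461 and 5379 (-0.58). Adrm1, the ubiquitin receptor of the base, had a ratio of -0.16, and Pomp, the maturation factor of the core, read 8894 and 10911 (-0.023). Ecpas, a proteasome-binding scaffold, had a ratio of -0.83, and Ube3c, a ligase on the particle, one of -0.86. Of the genes that control proteasome transcription, Nfe2l1 read 121.9 and 222.0 (0.55), Ddi2, the protease that releases its product, read 175.0 and 115.8 (-0.91), and Nfe2l2 had a ratio of 0.0088. The ubiquitin genes Ubb and Rps27a had ratios of -0.21 and -0.20.

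Other large complexes gave a scale for the subunit medians, though these groups were picked after values had been seen. Mitochondrial ribosomal proteins had a median log2 ratio of 0.21, with 55 of 78 above 0, and the CCT chaperonin one of 0.28, with 7 of 8 above 0. Cytosolic ribosomal proteins had a median of -0.26, with 12 of 98 above 0. The median of 0.29 over the core, base and lid subunits with a Psm symbol thus lay near that of the CCT chaperonin.

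The motif search added little to tell the genes apart. RefSeq windows were found for 43 of the 57 symbols, 47 windows in all, and were read on both strands. The antioxidant response element core, TGACNNNGC, which Nfe2l1 and Nfe2l2 are known to bind, was in 6 of the 47 windows (12.8%) and in 12.4% of all 32851 windows. It was found for Psmb5, Psmb6, Psmc6, Psmd12, Psmd9 and Psme4, whose log2 ratios ran from -0.77 (Psmd9) to 0.37 (Psmd12). The interferon response element core, GAAANNGAA, was in 7 of 47 (14.9%) and in 8.56% of all windows. It was found for Psmb3, Psmb4, Psmc2, Psmd4, Psmd9, Psme1 and Psmg4, with ratios from -0.77 (Psmd9) to 0.44 (Psmc2). The gamma-activated site, TTCNNNGAA, which reads the same on both strands, was in 3 of 47 (6.38%), those of Psmb8, Psmd2 and Psmg1, and in 8.30% of all windows. In the windows printed above, the match of Psmb8 begins at position -97 from the transcription start and that of Psme1 at position 11. A match is a run of letters and not a measured site.

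How far these directions depend on the scaling was examined over 12 other ways of processing. Of the 49 genes, 26 had a ratio above 0 and 6 below 0 in every one that gave them a ratio, and 17 had a ratio whose sign turned in at least 1. In 12 of those 17 it turned only without scaling or with scaling to the median, settings that moved the median of all named genes by 0.31 and by -0.13. The 5 others of the 17 were Psmb3, Psmc5, Psmc6, Psmd5 and Psme2. Keeping dim probes moved the median of all named genes by -0.14. It could turn none of these signs, because that setting leaves the ratio of a gene above background on both arrays unchanged. Relative to the median of all named genes under the same setting, the median of the proteasome genes was between 0.14 and 0.28 higher in all 13. The alpha ring had the highest class median in all 13, and the activators with the inhibitor had the lowest.

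**Figure D5:**
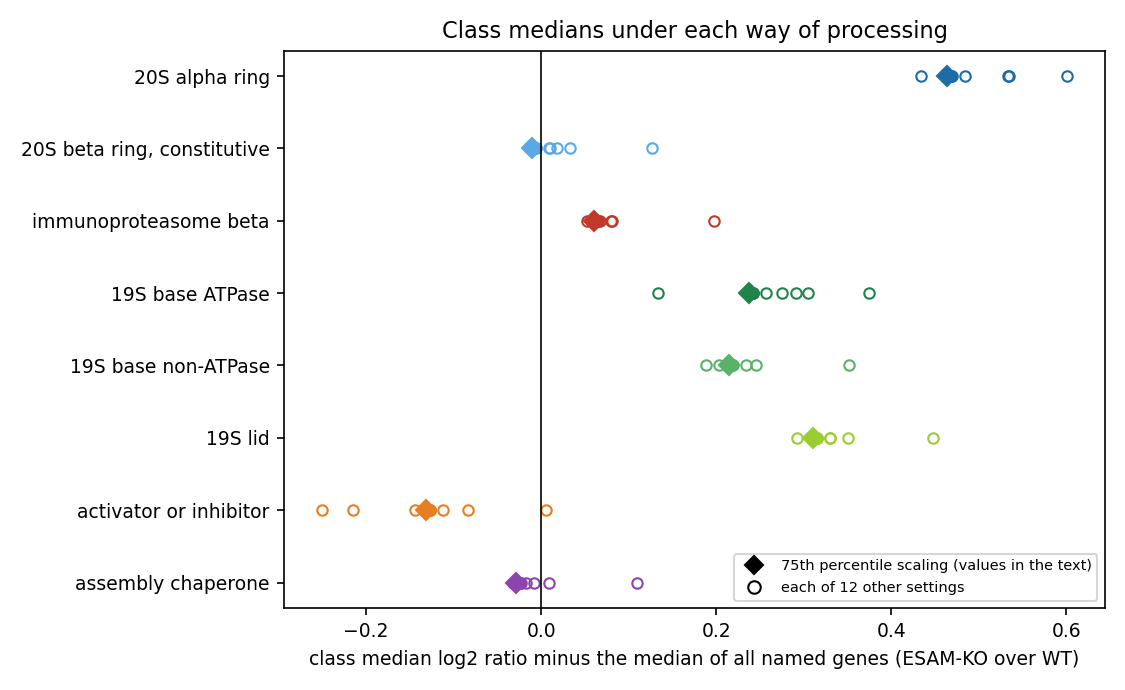
Median log2 ratio of each class of proteasome genes minus the median of all named genes (x axis), for the 75th percentile scaling used in the text (filled diamonds) and for each of 12 other settings (open circles). The alpha ring, the 19S classes and the immunoproteasome subunits lie above 0 in every setting, and the alpha ring is highest in each.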

How the data were processed

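Pre CFU-E of both genotypes, WT and ESAM-KO, were measured after 5-FU on 1 array each. The authors deposited the intensity of every spot from Agilent Feature Extraction 10.10.1.1, after background subtraction within the array and without scaling between arrays, together with outlier and well-above-background flags (other unit, used as filters), and a series table of the same intensity. Control spots were left out, and so were 254 outlier spots of the 59305 that remained. Spots of a probe were averaged as log2, and each array was set to its 75th percentile. A probe passed as above background if over 50% of its spots carried that flag. A ratio with only 1 such array is a bound, taken against the dim signal or, if higher, the lowest one flagged well above background (12.6 on WT, 13.2 on ESAM-KO). Spots well above background made up 57.3% on WT and 61.1% on ESAM-KO, and none was saturated. The number of arrays limits the precision.

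The files give transcript accessions where the design had assumed gene names. RefSeq GRCm38.p6 named 27235 probes; the array header names mm9, and GRCm38.p6 served only for names, gene order and promoter windows. The genes named are every member with its values where it was past 1.5-fold, had discordant probes or bounded its class, and members of fixed lists. Counts and medians cover whole lists, but single values of a few list members are not reported here. The members and lists were chosen with earlier results of these data known. The separate class of Psma8, the 50% rule, the comparison complexes and the promoters printed were chosen after values had been seen, as were some further genes named. Both arrays shared a slide and a scan, so no block could be fitted. Alternatives were other scalings, quantile and cyclic loess normalization, normexp (offset 50, on median spot signals, since the files used here hold no mean signal), the series table, other dim-probe filters, outlier spots, the mean of probes, a floor, other thresholds and other constitutive sets. The counting was tested on simulated data. Python 3.11.15, pandas 2.3.3, numpy 2.4.6, scipy 1.17.1, R 4.3.3 and limma 3.58.1 were used.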

Additional observations from a re-analysis of the deposited data

How the results depend on the processing

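The number of proteasome genes past 2-fold was 1, all higher, with the 75th percentile scaling. It was 3 without scaling, and 0 with normexp and quantile normalization or where both arrays had to be above background, settings in which Psma8 was under 2-fold or had no ratio. At 1.5-fold it was 8, with 7 higher and 1 lower. Without scaling the median log2 ratios were 0.47 over all proteasome genes, 0.78 for the alpha ring, 0.31 for the constitutive beta ring, 0.38 for the immunoproteasome subunits, 0.56 for the 19S ATPases, 0.53 for the other base subunits, 0.63 for the lid, 0.19 for the activators and inhibitor and 0.29 for the assembly chaperones, as every gene then gains 0.32. With scaling to the median, 27 of 49 ratios were above 0 in place of 33, and the medians were 0.021 over all proteasome genes, 0.33 for the alpha ring, -0.14 for the constitutive beta ring and -0.069 for the immunoproteasome subunits. Psma8, the only proteasome gene past 2-fold, stayed above 0 in every setting that gave it a ratio. Genes of the other lists, such as Irf1, were not part of this check. The difference between immunoproteasome and constitutive core was between -0.23 and -0.079 over all alternatives. The constitutive beta ring alone was not among the sets compared, and with the 75th percentile scaling its median of -0.0099 lay below the 0.060 of the immunoproteasome subunits. Of 623 values of single genes and pairs, 54 moved by more than their scanner error, 48 of them without scaling. Those 48 had to move, as every gene then gains 0.32 and no proteasome gene above background on both arrays had an error past 0.21. The 623 also include values that could not move, those of genes above background on both arrays under another dim-probe filter. Psme2 went from 0.39 to -0.22 with normexp. The cause of these shifts was not tested. No paired analysis was possible because a single array stands for each genotype, and for the same reason no array could be left out.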
